A study of Odorrana tormota with 4 samples.

Results

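The potassium and HCN channel subunits of the *O. tormota* brain transcriptome comprised 69 genes. Members were the unigenes (assembled transcripts) whose Swiss-Prot description carried a gene symbol starting with KCN or HCN, and unigenes whose best NR protein match was *Gallus* or *Meleagris* were dropped. This gave 109 of the 197684 unigenes of the assembly, and the FPKM of the unigenes of one gene were summed to the level of that gene. With the same rule the assembly held 17058 named genes. RNA-Seq was done on whole brain tissue of wild-caught adult *O. tormota*, the concave-eared torrent frog, in 4 pooled libraries. F1 and F2 each held RNA of 2 females, and M1 and M2 each held RNA of 4 males. No frog was treated, so the comparison was between the sexes, and the study asked it because hearing of high frequencies differs between them. Frogs per pool went with sex, so the effect of sex and that of pool size cannot be told apart. All spreads are between pools (n = 2 per sex), and nothing is known of the spread between single frogs.

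Potassium channels let potassium leave a neuron, which ends action potentials and sets how fast a cell can fire again. The voltage-gated subunits (Kv) form tetramers, and families differ in speed: KCNA and KCNC channels shape the spike in axons and fast-firing cells, KCND channels carry the transient A-type current, and KCNQ channels carry the slow M current. HCN subunits are their relatives that open on hyperpolarization and pass an inward mixed cation current, the pacemaker current. In the auditory brainstem of mammals, KCNA, KCNC and HCN channels are known for the precise timing of spikes. KCNJ inward rectifiers and KCNK leak channels set the resting potential, and the KCNJ channels of glia clear potassium from the extracellular space.

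Of the 69 genes, 67 were above 0 FPKM in all 4 pools and 16 had a mean of at least 10 FPKM. The median gene had a mean of 5.13 FPKM, and 16 genes had a mean under 1 FPKM. FPKM is scaled by transcript length, so levels of different genes can be set beside each other. Summed over all members, the channels of F1, F2, M1 and M2 took 513, 430, 429 and 446 FPKM, which was 0.0767%, 0.0613%, 0.0598% and 0.0641% of all FPKM. The values are FPKM without read counts, so their counting error cannot be given, and a 0 means only that the table lists none. All FPKM of a pool summed to between 669260 in F1 and 717478 in M1. Defining markers of brain were abundant: the 12 neuron markers found summed to 2119, 1668, 2022 and 2031 FPKM in F1, F2, M1 and M2. Markers of tissue outside the brain were uneven, and the skeletal muscle list summed to 7.14, 418, 10.7 and 28.2 FPKM and the pituitary list to 76.3, 6661, 1599 and 1067 FPKM in the same order. In bulk tissue, fewer cells of a type and less RNA per cell cannot be told apart.

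The member unigenes were from 308 to 12999 bp long, with a median of 2127 bp. Their best NR match was a *Xenopus* protein for 80 unigenes, another species for 25 and none for 4. In 45 genes the sum rested on 1 unigene, and in 24 genes on several. Where such unigenes are pieces of one transcript, the sum counts that transcript more than once. *KCNT2* was the extreme with 8 unigenes, and its longest, of 12999 bp, held 38.1% of the sum. *KCNC4* rested mostly on a short unigene of 486 bp with 11.5, 12.3, 12.9 and 7.06 FPKM in F1, F2, M1 and M2. Its longest unigene, of 3286 bp, had 1.23, 1.03, 1.04 and 1.03 FPKM, so the rank of *KCNC4* depends on which piece is read.

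No KCNJ gene was found by the description, because that cell was empty for every KCNJ unigene. The cell was empty for 959 of the 41084 unigenes with a Swiss-Prot entry. Read by the name of the entry instead, a choice made after seeing the data, 23 more unigenes gave 16 further KCN genes, and 12 of these were KCNJ genes with 19 unigenes. They are described here as entry-named genes and are not counted among the 69. *KCNC2*, which carries the fast Kv3 current with *KCNC1*, had no Swiss-Prot name but an NR match. Its unigene of 4977 bp was at 13.1, 11.2, 12.1 and 12.3 FPKM in F1, F2, M1 and M2, close to the level of *KCNC1*.

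**Figure D1:**
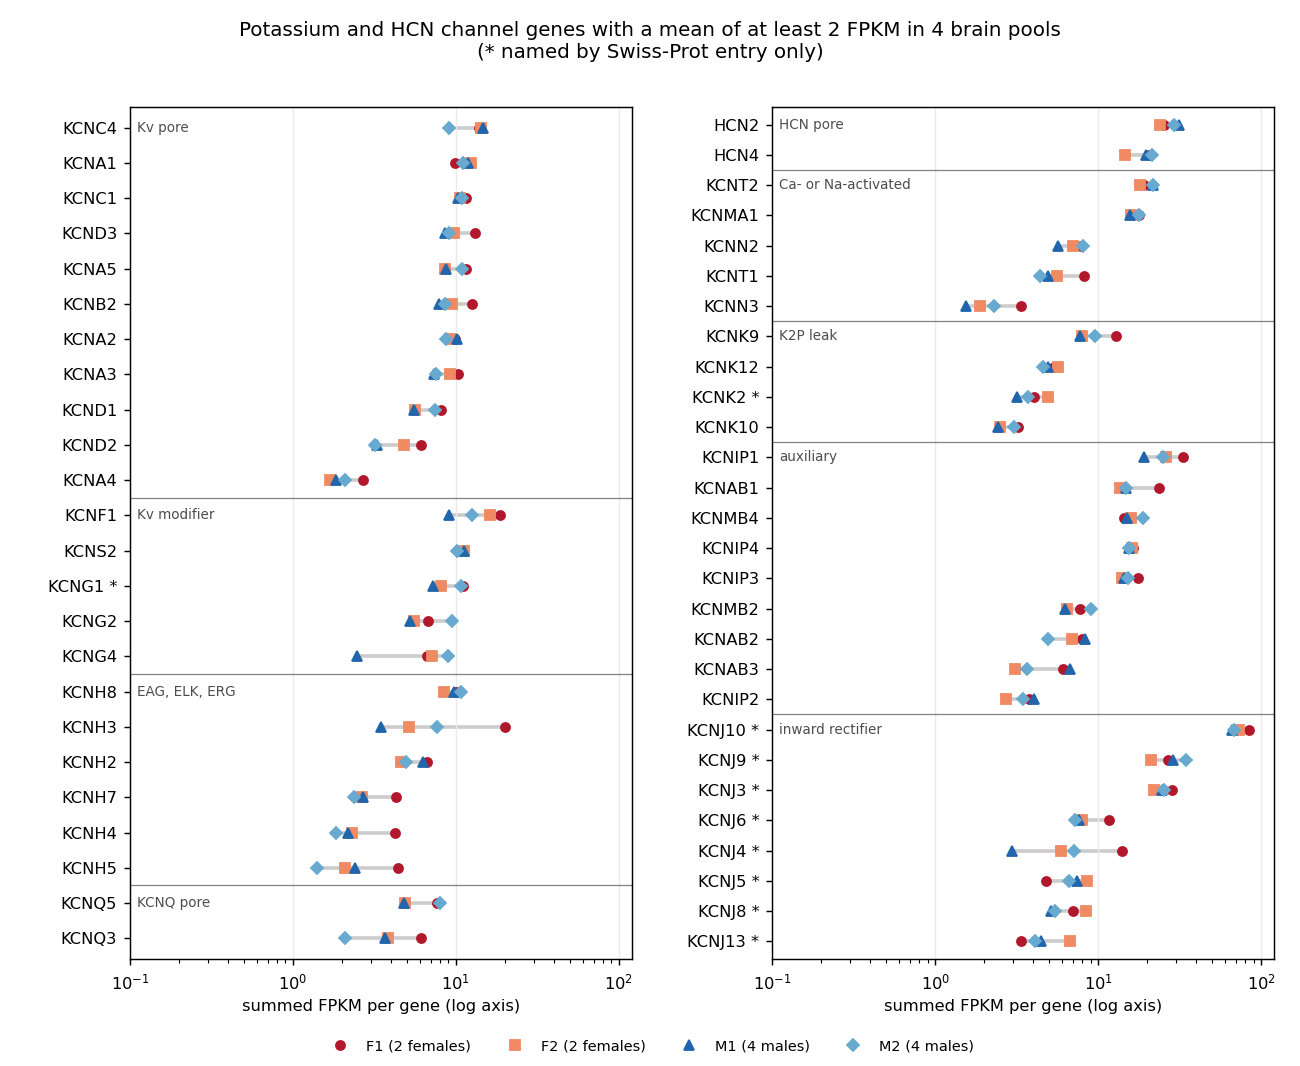
Summed FPKM (log axis) of each potassium and HCN channel gene with a mean of at least 2 FPKM, apart from a few genes left out, 1 point per pool, ordered by class and level, with a grey bar from the lowest to the highest pool. Most genes lie within a narrow range over the 4 pools, *KCNJ10* is highest at 66.3 to 84.5 FPKM, and *KCNH3*, *KCNJ4* and *KCNG4* spread widely.

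Among the pore-forming Kv subunits, levels lay close together and no gene stood far above the rest. The KCNA family, the Shaker-type channels of axons, was led by *KCNA1* with 9.82, 12.4, 11.9 and 11.1 FPKM in F1, F2, M1 and M2. *KCNA5* followed with 11.6, 8.60, 8.73 and 10.8 FPKM and *KCNA2*, the usual partner of *KCNA1* in myelinated axons, with 9.87, 9.19, 10.1 and 8.74 FPKM. The sums of these 3 genes overlapped with each other and between the sexes. The unigenes of *KCNA1* disagreed, and its unigene of 1466 bp had 0.0289, 2.67, 0 and 0 FPKM. Its unigene of 1732 bp had 3.68, 3.996, 4.495 and 4.85 FPKM, and its longest, of 5835 bp, had 6.11, 5.697, 7.38 and 6.24 FPKM. Both of these were higher in both male pools (adjusted p = 0.671 and 0.752 in the limma fit of single unigenes). *KCNA3* had 10.3, 9.17, 7.39 and 7.52 FPKM, so the female pools lay above the male pools. *KCNA4*, an A-type channel, was at 1.68 to 2.71 FPKM. A unigene of 346 bp with no Swiss-Prot name but an NR match to Kv1.4, the *KCNA4* channel, is not in the sums. It had 3.39, 3.58, 3.04 and 0.652 FPKM.

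In the KCNC family, whose fast gating allows firing at high rates, *KCNC1* was nearly even with 11.6, 10.6, 10.3 and 10.8 FPKM. *KCNC4* had 13.9, 14.2, 14.7 and 9.01 FPKM, and M2 was the lowest pool. *KCNB2*, a delayed rectifier of the soma, had 12.6, 9.45, 7.86 and 8.52 FPKM and was higher in both female pools.

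All 3 KCND genes were present. *KCND3* had 13.2, 9.79, 8.54 and 9.13 FPKM, *KCND1* had 8.14, 5.57, 5.55 and 7.47 FPKM, and *KCND2* had 6.09, 4.78, 3.28 and 3.18 FPKM in F1, F2, M1 and M2. The female pools were above the male pools for *KCND2* and *KCND3* and overlapped for *KCND1*. KCNIP proteins are calcium-binding subunits that bring KCND channels to the membrane, and *KCNIP1* was the second highest of all 69 genes. It had 33.1, 25.9, 19.1 and 25.1 FPKM, and F2 and M2 differed little. *KCNIP4* was among the most even genes with 16.4, 16.1, 15.4 and 15.5 FPKM, and *KCNIP3* had 17.6, 13.9, 14.4 and 15.2 FPKM. *DPP10* and *DPP6*, the transmembrane partners of the KCND channels, reached 68.3 to 90.4 and 33.2 to 40.2 FPKM, and both overlapped between the sexes.

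Modifier subunits form no channel alone and assemble with KCNB subunits, and *KCNF1* was the most abundant of them. It had 18.6, 16.1, 9.03 and 12.6 FPKM. The female pools lay above the male pools, and M1 was the lowest. *KCNS2* was even with 10.5, 11.1, 11.2 and 10.2 FPKM. *KCNG2* had 6.78, 5.51, 5.20 and 9.43 FPKM, and *KCNG4* had 6.66, 7.14, 2.48 and 8.94 FPKM with M1 apart from the rest. The entry-named *KCNG1* had 11.01, 8.08, 7.27 and 10.7 FPKM. *KCNV1* stayed between 1.89 and 2.17 FPKM, and *KCNS3* and *KCNV2* were under 1 FPKM in all pools.

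The cytoplasmic KCNAB subunits bind KCNA channels and speed their inactivation. *KCNAB1* had 23.5 FPKM in F1 and 13.6 to 14.8 FPKM in the other pools. *KCNAB2* had 7.93, 6.96, 8.33 and 4.92 FPKM and *KCNAB3* had 6.09, 3.08, 6.70 and 3.64 FPKM, so within each sex the pool numbered 1 was higher. Proteins that hold KCNA channels at their place on the axon or bind them were also high. *LGI1* had 102, 101, 79.6 and 105 FPKM, the scaffold *DLG4* had 102, 79.5, 75.0 and 83.9 FPKM, and *CNTNAP2* had 34.6, 29.1, 40.6 and 41.0 FPKM. *CNTNAP2* was higher in both male pools, and the other named partners overlapped.

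KCNH genes encode the slow EAG, ELK and ERG channels, and 8 of them were found. *KCNH8* had 10.03, 8.46, 9.72 and 10.8 FPKM. *KCNH3*, an ELK channel of the forebrain in mammals, had 19.9, 5.19, 3.47 and 7.67 FPKM and was the least even of the genes at this level. *KCNH2*, the ERG channel, had 6.62, 4.61, 6.25 and 4.97 FPKM. *KCNH4*, *KCNH5* and *KCNH7* were at 1.39 to 4.41 FPKM, and F1 was the highest pool for each of the 3. *KCNH1* and *KCNH6* were under 1 FPKM in all pools.

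Of the KCNQ genes, *KCNQ3*, a subunit of the neuronal M current, had 6.07, 3.85, 3.66 and 2.09 FPKM. Both female pools were above both male pools, and M2 was lowest. *KCNQ5* had 7.67, 4.85, 4.80 and 7.94 FPKM and overlapped fully. *KCNQ1*, the channel of heart and inner ear epithelium, was at 0.465 to 1.12 FPKM.

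*KCNK1*, a leak channel, is a member that the study named among its hearing genes and reported as higher in males. That call came from DEGseq, not from the limma fit used here. Hair cell markers were low in all pools and summed to 10.8 to 14.0 FPKM. Of the 3 that were tested between the sexes, 1 was higher in both male pools, against 21% of all genes. In both female pools 0 were higher, against 23.6% of all genes. *TMC1*, a part of the hair cell transduction channel, had 0, 0, 0.0777 and 1.37 FPKM in F1, F2, M1 and M2. *ATOH1* had 0.193, 0.385, 0.259 and 0 FPKM in the same order, and both were too low to be tested. For *KCNK1* the sum was 1.69, 2.19, 1.86 and 0.891 FPKM in F1, F2, M1 and M2 (difference 0.42, SE 0.34, female minus male on the log2 scale, limma adjusted p = 0.673). Its 3 unigenes disagreed. The longest, of 1618 bp, had 0.190, 0.995, 0.597 and 0.404 FPKM with the pools of both sexes mixed. The unigene of 1526 bp was higher in both female pools with 1.28, 1.05, 0.605 and 0.346 FPKM. The unigene of 925 bp had 0.221, 0.145, 0.654 and 0.141 FPKM. One more unigene, of 784 bp, left out of the sum for its *Gallus* match, was at 0 in F1 and F2 and at 0.612 and 1.21 FPKM in M1 and M2. With this unigene included the difference turned to -0.19, and with amphibian matches only to -0.15.

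**Figure D2:**
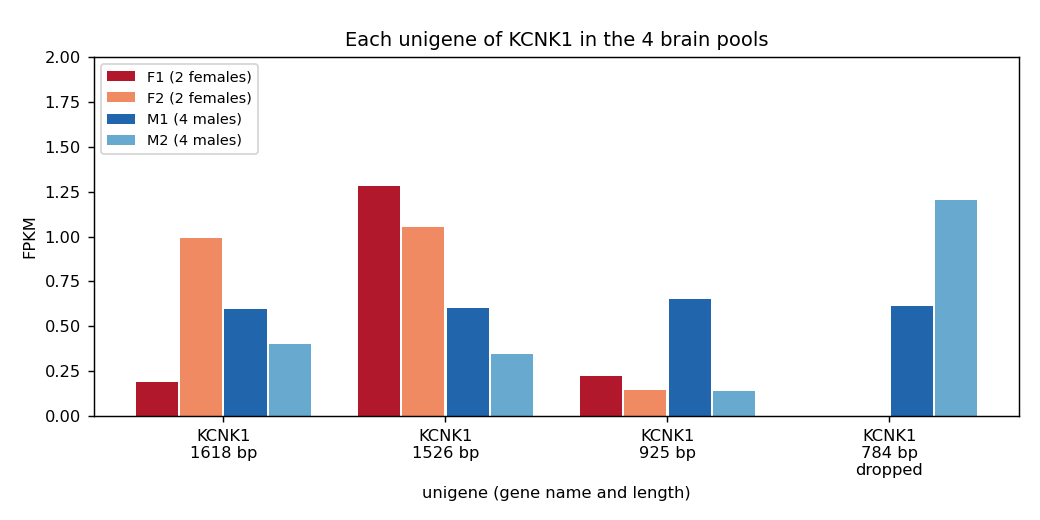
FPKM of every unigene of *KCNK1*, including the unigene dropped for its *Gallus* match, with 1 bar per pool and the unigene length under each group. The dropped unigene of 784 bp is at 0 in F1 and F2, and the unigene of 1526 bp is higher in both female pools.

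Unigenes at 0 in both female pools were found in a few other members. They were 5 of the 109 member unigenes (4.59%), against 22.3% of all named unigenes kept by the same match rule. They were also 5 of the 6 dropped KCN unigenes that were named by the description, none above 1.69 FPKM in any pool. The share among all unigenes with a *Gallus* or *Meleagris* match was not counted, so no comparison is drawn from these dropped unigenes. The reverse, 0 in both male pools, was seen for 2 member unigenes (1.83%), of *KCNA1* and *KCNAB2*, against 6.18% of the named unigenes. Of the 5 member unigenes, 1 matched an amphibian and 4 matched a bird of another genus, and these 4 belonged to *KCNT2* and *HCN4*. The 5 dropped ones belonged to *KCNK1*, *KCNT2* and *KCNU1*. The only one of these 6 found in all pools was a unigene of *KCNC1* with 11.8, 8.50, 9.44 and 8.44 FPKM, nearly the level of *KCNC1* itself. The dropped unigene of KCNJ11, named by its entry only, is not among the 6 and was also found in all pools.

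HCN was the second highest subfamily by the rule, and *HCN2* and *HCN4* had the lower mean in females. *HCN2*, the member with the highest level, had 25.4, 23.9, 31.2 and 29.1 FPKM in F1, F2, M1 and M2. The male pools lay above the female pools by more than the pools of either sex differed. *HCN4*, the slow pacemaker subunit, had 20.6, 14.6, 19.6 and 21.4 FPKM. For this gene F2 was the lowest pool and the sexes overlapped, and without F2 the difference of *HCN4* turned from -0.24 to 0.0052 on the log2 scale. *PEX5L*, which binds HCN subunits and controls their traffic to the membrane, had 6.57, 6.46, 10.2 and 7.31 FPKM and so was higher in both male pools (difference -0.38, limma adjusted p = 0.517).

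Channels opened by calcium or sodium were led by *KCNT2*, a sodium-activated channel, with 19.2, 18.1, 21.8 and 21.7 FPKM. Its longest unigene alone had 8.09, 6.48, 8.33 and 7.86 FPKM and overlapped between the sexes, whereas the sum did not. *KCNT1*, the other sodium-activated gene, was higher in both female pools with 8.21, 5.55, 4.95 and 4.42 FPKM. *KCNMA1*, the large-conductance BK channel, was even with 17.8, 15.99, 15.7 and 17.8 FPKM. Its neuronal subunit *KCNMB4* had 14.4, 15.9, 15.1 and 18.7 FPKM and *KCNMB2* had 7.78, 6.43, 6.30 and 9.04 FPKM. Of the small-conductance channels, *KCNN2* had 7.85, 7.05, 5.67 and 8.12 FPKM and *KCNN3* had 3.36, 1.88, 1.55 and 2.295 FPKM.

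Leak channels of the KCNK family were many and low, with 10 genes by the rule. *KCNK9*, an acid-sensitive channel, had 12.8, 8.01, 7.71 and 9.59 FPKM. *KCNK12* followed with 5.38, 5.63, 4.92 and 4.57 FPKM and *KCNK10*, a channel gated by stretch and lipids, with 3.23, 2.49, 2.43 and 3.05 FPKM. *KCNK16* had 0.9996, 1.72, 2.49 and 1.73 FPKM, spread over 3 unigenes. *KCNK13* had 1.43, 1.07, 0.796 and 0.634 FPKM, higher in both female pools. The entry-named *KCNK2* had 4.05, 4.90, 3.19 and 3.73 FPKM.

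Among the entry-named inward rectifiers, *KCNJ10* was higher than any of the 69 members. *KCNJ10*, the potassium channel of astroglia, had 84.5, 73.5, 66.3 and 68.3 FPKM in F1, F2, M1 and M2, with both female pools above both male pools (difference 0.23, SE 0.11, adjusted p = 0.493 in the limma fit with entry names). The astroglia list summed to 1484, 1440, 974 and 1099 FPKM in the same order, and its most abundant gene *GLUL*, glutamine synthetase, had 1005, 982, 556 and 619 FPKM and carried most of that sum. Of the 5 genes of the list that were tested, 2 were higher in both female pools, *GLUL* and *SLC1A3*. The 2 higher in both male pools were *FABP7* (217, 224, 225 and 266 FPKM) and *S100B* (0.462, 0.913, 1.32 and 1.44 FPKM). Of all 12017 genes tested, 23.6% were higher in both female pools and 21% in both male pools. The part of astroglia in the *KCNJ10* values was not tested.

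The G protein-gated KCNJ genes, which neurotransmitters open, came next. *KCNJ9* had 26.8, 21.2, 28.7 and 34.7 FPKM, higher in both male pools (difference -0.40, SE 0.17, limma adjusted p = 0.437). *KCNJ3* had 28.2, 22.0, 24.8 and 25.3 FPKM and *KCNJ6* had 11.7, 7.98, 7.61 and 7.22 FPKM, so only *KCNJ6* of these 2 was higher in both female pools. *KCNJ8*, a pore of ATP-sensitive channels, had 6.96, 8.40, 5.16 and 5.399 FPKM and the smallest p of the entry-named genes (difference 0.50, SE 0.17, limma adjusted p = 0.352). Its largest part came from a unigene of 1912 bp that KEGG named KCNJ11, with 5.25, 4.09, 3.81 and 4.25 FPKM, so the name of the *KCNJ8* sum is uncertain. This unigene overlapped between the sexes. The unigenes of 1171 and 807 bp were highest in F2, with 2.55 and 1.48 FPKM there. *ABCC8*, the regulatory subunit of ATP-sensitive channels in neurons, had 35.8, 24.4, 22.9 and 27.1 FPKM and overlapped between the sexes.

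By subfamily, the KCNIP genes had the highest sum among the members and KCNRG the lowest. KCNIP summed to 70.9, 58.7, 53.0 and 59.2 FPKM and HCN to 52.5, 43.4, 58.5 and 56.4 FPKM in F1, F2, M1 and M2. KCNA summed to 44.4, 44.2, 40.0 and 40.3 FPKM. The ranges of KCNIP and HCN overlapped, as did those of HCN and KCNA, whereas KCNIP lay above KCNA in every pool. Next came KCNH with 26.0 to 50.7 FPKM, where F1 lay apart from the other pools, and KCNAB with 23.4 to 37.5 FPKM. KCNT was at 23.6 to 27.4 FPKM and KCNMB at 22.1 to 29.2 FPKM. Of the other pore families KCNQ summed to 22.6 to 28.2 FPKM and KCNC, without *KCNC2*, to 20.5 to 26.6 FPKM. KCNK summed to 21.6 to 26.8 FPKM and KCND to 17.4 to 27.4 FPKM, and the ranges of these 4 sums overlapped.

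With entry names, KCNJ had 181, 156, 149 and 159 FPKM and was the highest subfamily in each pool. Of KCNJ, HCN, KCNA, KCNK, KCNQ, KCNC and KCND, HCN came after KCNJ in F1, M1 and M2, and KCNA did in F2. KCND was the lowest of the 7 in F2, M1 and M2, and KCNC was the lowest in F1. The KCNC sum leaves out *KCNC2*, named only by its NR match and at 11.2 to 13.1 FPKM, so the place of KCNC is too low. The HCN sum was higher in both male pools and the KCND sum in F1 and F2, where F2 was only slightly above M2 with 20.1 against 19.8 FPKM. With only the longest unigene of each gene, KCNC summed to a mean of 11.8 FPKM in place of 24.7 FPKM, since *KCNC4* then nearly vanished.

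**Figure D3:**
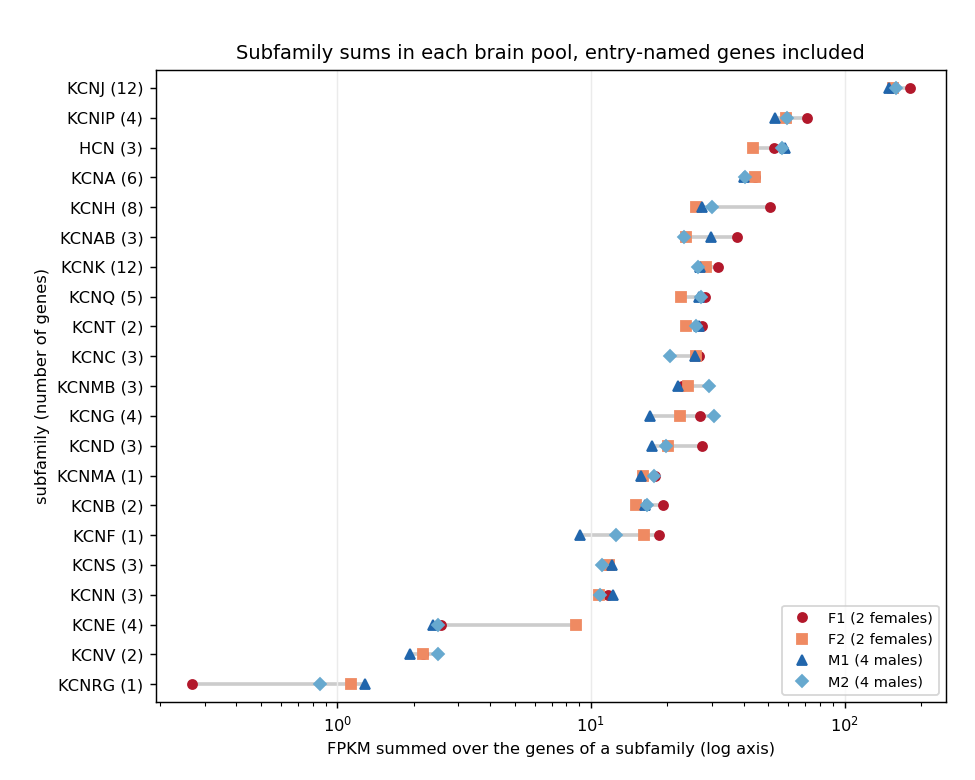
FPKM summed over the genes of each subfamily (log axis), entry-named genes included, with 1 point per pool and the number of genes in brackets. KCNJ lies apart at 149 to 181 FPKM, KCNIP, HCN and KCNA follow, and KCNH and KCNE each have 1 pool far above the others.

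The comparison of the sexes was fitted with limma on log2(FPKM + 0.5) over all 12017 genes with at least 1 FPKM in at least 2 pools, with Benjamini-Hochberg adjustment over these genes. Of the 69 members 55 passed this filter and 14 did not. Those 14 were *KCNA7*, *KCNE2*, *KCNE3*, *KCNE4*, *KCNH1*, *KCNH6*, *KCNK3*, *KCNK5*, *KCNK17*, *KCNK18*, *KCNQ1*, *KCNS1*, *KCNS3* and *KCNV2*. No member passed an adjusted p of 0.05, and neither did any other gene (0% of 12017). The smallest adjusted p was 0.306 among the members and 0.0513 over all genes. Differences are female minus male on the log2 scale. The median difference was 0.07 over the members and 0.02 over all genes, and 36 members had a positive and 19 a negative difference. Differences were within 0.5 of 0 for 47 members (85.5%), against 83.2% of all genes.

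At an unadjusted p under 0.05, 2 members were higher in females, against 5.67% of all genes, and 1 was higher in males, against 6.86% of all genes. The 2 were *KCND2*, with a difference of 0.66 (SE 0.19, limma adjusted p = 0.306), and *KCNF1*, with 0.68 (SE 0.20, limma adjusted p = 0.306). The other was *HCN2* with -0.29 (SE 0.11, limma adjusted p = 0.397). Over the alternatives computed, the adjusted p of *KCNF1* lay between 0.138 and 0.891 and was the lowest of any member.

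For some members the pools of the sexes did not overlap. Both female pools were above both male pools for 13 of 55 members, against 23.6% of all genes. Among them were *KCNA3*, *KCNB2*, *KCND2*, *KCND3*, *KCNF1*, *KCNH4*, *KCNIP1*, *KCNQ3* and *KCNT1*. Both male pools were above for 5 members, against 21% of all genes, and *HCN2*, *KCNK16* and *KCNT2* were among them. Among those higher in females, *KCNQ3* differed by 0.70 (SE 0.34), *KCNH4* by 0.54 (SE 0.32) and *KCNK13* by 0.52 (SE 0.26). *KCNT1* differed by 0.49 (SE 0.23), *KCNIP1* by 0.41 (SE 0.20), *KCNB2* by 0.40 (SE 0.19) and *KCNA3* by 0.36 (SE 0.14). Among those higher in males, *KCNK16* differed by -0.50 (SE 0.31) and *KCNT2* by -0.22 (SE 0.11). For *KCNK16*, M2 was only slightly above F2 with 1.731 against 1.723 FPKM. Its longest unigene, with 69.3% of the sum, overlapped between the sexes. The largest difference, 0.92 for *KCNH3*, had an SE of 0.71, and without F1 it was -0.0023. Among single unigenes, 66 of the 109 could be tested, and 0 passed the adjusted threshold in limma. Over all 51457 unigenes tested, 0 passed it as well.

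**Figure D4:**
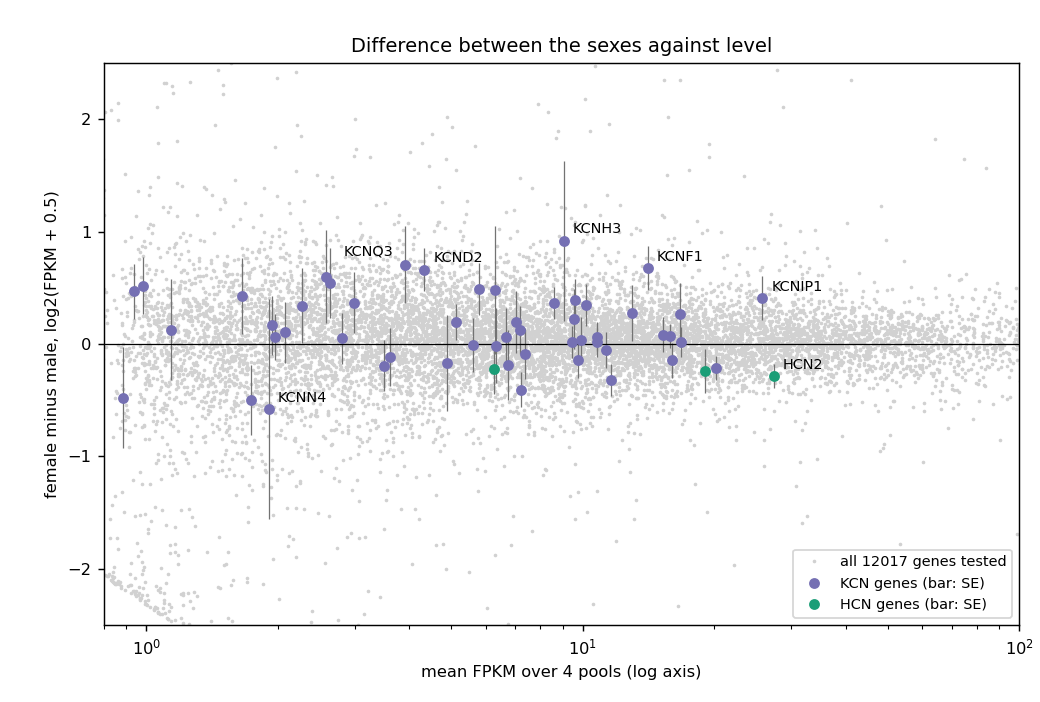
Female minus male difference on the log2(FPKM + 0.5) scale against mean FPKM (log axis), with grey points for all genes tested, coloured points for the 55 members tested and bars for the SE. Genes outside the axes are not drawn, the members lie within the cloud of all genes, and *KCNH3* at 0.92 is the member farthest from 0.

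Pools of one sex differed by a median of 0.33 (F1 and F2) and 0.28 (M1 and M2) over the members on the log2 scale, against 0.22 and 0.18 over all genes. F1 was above F2 for 42 of the 55 members, against 48.1% of all genes, and the median member was 0.28 higher in F1 on the log2 scale, against 0.00 over all genes. M1 was above M2 for 28 of 55 members, against 48.7% of all genes. F1 was the highest pool for 27 of the 55 members (28.9% of all genes), F2 for 5 (28.2%), M1 for 14 (19%) and M2 for 9 (24%). The neuron markers also summed to more in F1 than in F2 (2119 against 1668 FPKM), and their part in this difference was not tested.

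The median difference depended on which female pool was kept. With F2 left out, F1 alone stood for the females and 50 members could be tested. The median difference was then 0.24 over members and 0.01 over all genes. With F1 left out, F2 alone stood for the females, and the median difference over members was -0.02. Each of these fits sets 1 female pool against the male pools and holds no spread between female pools.

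Differences over 2-fold between the pools of one sex were counted over the 55 tested members on the log2(FPKM + 0.5) scale. F1 was over 2-fold above F2 for *KCNH3*, against 1.01% of all genes, and F2 over F1 for *KCNN4* and *KCNRG*, against 5.28% of all genes. M1 was over 2-fold above M2 for *KCNN4*, against 2.93% of all genes, and M2 over M1 for *KCNG4* and *KCNH3*, against 1.2% of all genes. On FPKM with nothing added, *KCNH5* also passed 2-fold in F1 over F2, *KCNMB3* in F2 over F1 with 1.82 against 0.663 FPKM, and *KCNK1* in M1 over M2. Members below the filter are not in these counts, although *KCNA7* and *KCNE4* differed more widely between F1 and F2 than any of these on either scale. *KCNE2* did so only with nothing added, and it was under 1 FPKM in all pools. *KCNRG*, a regulator of Kv assembly, was near the filter with 0.267, 1.13, 1.29 and 0.855 FPKM.

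Some channels had 1 pool far above the others, and *KCNA7*, *KCNN4*, *KCNJ4* and KCNJ11 were chosen for this after their values were seen. *KCNA7*, in mammals a channel of heart and skeletal muscle, had 0.0816, 3.21, 0.0602 and 0.0804 FPKM in F1, F2, M1 and M2. *KCNE4*, a single-span subunit of Kv channels, had 0.329, 6.26, 0.786 and 0.524 FPKM and *KCNE2* had 0.0451, 0.808, 0.0911 and 0.311 FPKM. All were highest in F2, the pool where *CKM*, the creatine kinase of muscle, had 0.875, 244, 2.39 and 8.80 FPKM. The dropped unigene of KCNJ11, a pore of ATP-sensitive channels in muscle and endocrine cells, was also highest in F2 with 8.36, 17.4, 7.57 and 7.73 FPKM. *KCNE2* is also on the choroid plexus list, where *FOLR1* and *KCNJ13* were highest in F2 too, *TTR* in F1 and *OTX2* in M2. The part of muscle, pituitary and choroid plexus RNA in these values was not tested.

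*KCNN4*, an intermediate-conductance channel of blood and epithelial cells, had 0.468, 1.80, 4.98 and 0.404 FPKM, and both of its unigenes were highest in M1. The skin list summed to 12.9, 50.4, 153 and 15.2 FPKM in the same pools, and the keratin *KRT12* had 0.168, 3.06, 126 and 0.970 FPKM and carried the sum of M1. The other abundant keratin of the list, *KRT18*, was highest in F2 with 12.2, 46.2, 25.4 and 13.99 FPKM. The red blood cell list was also highest in M1, with 1832, 6586, 8650 and 5019 FPKM, and *HBB* carried its sum. The other gene found of that list, *ALAS2*, was highest in F2 with 13.7, 61.2, 32.0 and 9.59 FPKM. Whether skin or blood RNA had a part in the *KCNN4* values was not tested.

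*KCNH3* and the entry-named *KCNJ4*, in mammals an inward rectifier of the forebrain, shared their order of pools. *KCNJ4* had 14.0, 5.90, 2.95 and 7.12 FPKM in F1, F2, M1 and M2, and for both genes the order from high to low was F1, M2, F2 and M1. *NEUROD6*, a transcription factor of cortical excitatory neurons in mammals, had the same order with 119, 82.2, 50.04 and 109 FPKM, and *TBR1* with 6.56, 3.91, 3.03 and 5.87 FPKM. The vesicular glutamate transporter *SLC17A7* was also lowest in M1 with 151, 130, 72.9 and 133 FPKM. These telencephalon genes were looked up after seeing the values, and whether the amount of forebrain tissue differed between pools was not tested. The sum of *KCNG4* was lowest in M1 too, whereas F1 was not its highest pool.

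**Figure D5:**
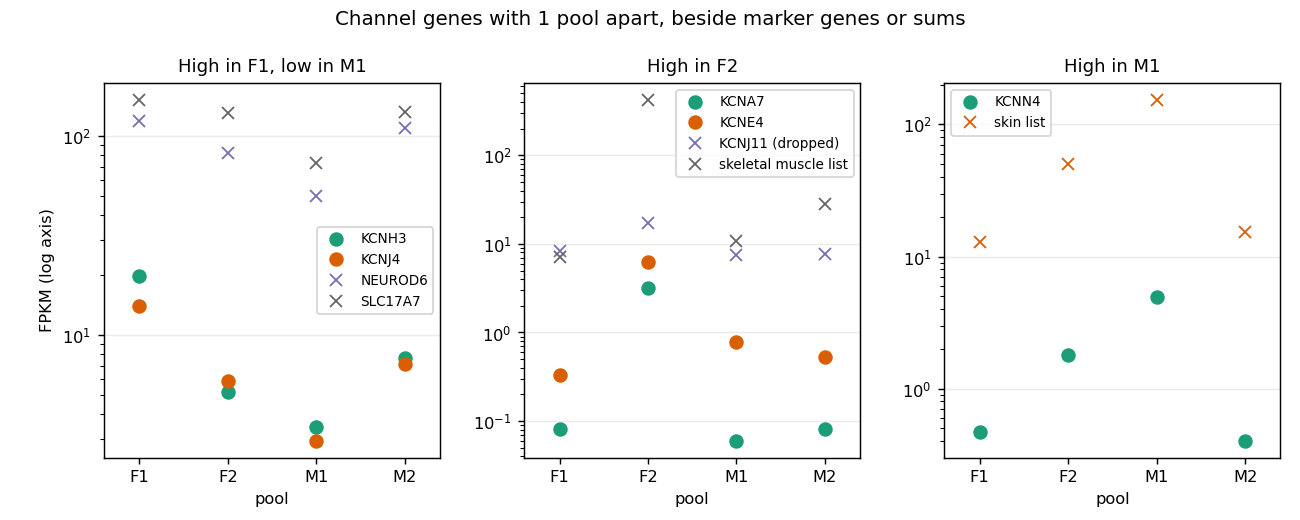
FPKM (log axis) in each pool of channel genes with 1 pool apart (filled points), beside marker genes, marker sums or the dropped KCNJ11 unigene (crosses). *KCNA7* and *KCNE4* are highest in F2 with the muscle list, *KCNN4* is highest in M1, as is the sum of the skin list, and *KCNH3* and *KCNJ4* are highest in F1 and lowest in M1.

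The partner genes listed for the channels gave no call either. Of 32 genes 26 passed the filter, and 0 passed the adjusted threshold in limma while 3 had an unadjusted p under 0.05, where 5.67% (higher in females) and 6.86% (higher in males) of all genes did. Both female pools were above for 3 of the 26, against 23.6% of all genes, and both male pools for 8, against 21% of all genes, and their median difference was -0.10. *CNTNAP2* was one of the 3 (-0.36, limma adjusted p = 0.370). *ATP1B1*, a subunit of the sodium pump, had 363, 348, 406 and 386 FPKM and was higher in both male pools. The chloride transporter *SLC12A5* had 94.4, 81.2, 107 and 93.97 FPKM and overlapped. *ANK3*, which anchors KCNQ channels at the axon initial segment, had 38.7, 33.5, 40.2 and 39.4 FPKM, higher in both male pools, and *GNB1*, a G protein subunit that opens KCNJ channels, had 56.9, 39.5, 38.4 and 41.1 FPKM.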

How the data were processed

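Poly(A) RNA of frog brain was sequenced in 2 female pools (2 frogs each) and 2 male pools (4 frogs each). FPKM per unigene were taken as deposited by the authors. The paper describes assembly with Trinity and TGICL and alignment with Bowtie2, whereas the labels name cutadapt, FastQC and Salmon among other programs, and which of them made the FPKM is not settled. No read counts were used, so no counting error is given, and no column held a comparison by the authors.

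Unigenes were named from the Swiss-Prot description, and FPKM were summed per gene. Genes with at least 1 FPKM in at least 2 pools were fitted with limma 3.58.1 in R 4.3.3 (log2(FPKM + 0.5), trend, sex only; residual degrees of freedom 2, prior 2.57). With 2 pools per sex, the smallest p of an exact permutation test is 0.333, so none was run. Nothing in the labels says which pools share handling, so p values measure only the spread between these pools. The fit was checked on simulated data, where 7 of 50 genes changed 2-fold and 38 of 50 changed 4-fold passed the adjusted threshold. Most 2-fold differences were therefore missed in the simulation, and the absence of calls does not show equal levels. The simulation also held 50 genes changed 16-fold and 50 changed 64-fold, of which 50 and 49 passed. Such genes make the adjusted threshold easier to pass for the rest. The data gave 0 calls, so the count for 4-fold changes can overstate what the fit would find. Python 3.11.15, pandas 2.3.3 and matplotlib 3.10.9 made tables and figures.

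Members and gene lists were chosen with earlier results of these data known. Named genes were up to 4 of the highest in KCNA, KCNC, KCND, KCNJ, KCNK, KCNQ and HCN, 2 in other subfamilies, the 8 smallest p in each direction, *KCNK1*, the HCN genes and the 3 highest partners per group. A few of these genes are not reported here. *KCNN4*, *KCNA4*, *KCNA7*, *KCNH2*, *KCNJ4*, *KCNJ8*, *KCNG1*, *KCNIP3*, *KCNAB3* and the other genes beyond this were named after their values were seen. Of the marker lists, the sums of neuron, astroglia, muscle, pituitary, skin, hair cell and red blood cell are given in the results. The others summed over their genes to 986 to 1356 FPKM (myelin), 29.9 to 44.8 (pericyte and endothelium), 0.518 to 13.9 (photoreceptor) and 25.4 to 35.8 (choroid plexus). A list for midbrain and hindbrain, added after seeing the data, summed to 8.52 to 19.5 FPKM.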

Additional observations from a re-analysis of the deposited data

How the results depend on the processing

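No potassium or HCN channel gene passed the adjusted threshold under any of the 20 alternatives, the replicate block included (0 of the members), and no member unigene did under the 13 that were run for single unigenes. The count over all genes, 0 in the fit reported, was 315 with 0.1 added before the logarithm, 26 with median-ratio scaling, 298 without a trend, 28 with a robust prior, 35 with the most abundant unigene of each gene, 76 with the longest, 55 with a length-weighted mean and 393 with no unigene dropped, and 0 to 2 with 1 pool left out. The cause was not tested. The replicate numbers share no stated batch. The F1 minus F2 and M1 minus M2 differences correlated at -0.253 over 12017 genes (2 pairs), and a replicate block with the numbers crossed, added after seeing the data, gave 40 calls over all genes and 0 among the members.

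The median difference of the members lay between -0.016 and 0.243 with 1 pool left out, where the lone pool of a sex was assumed to vary like the others. Of the partners, 1 was called with 0.1 added and 2 with no unigene dropped. The number of non-overlapping members changed with the setting, as did the number of members tested, so no comparison with all genes is drawn from it. It was highest in fits with 1 female pool left out, where only 1 pool stood for the females. Of the 44 named genes tested, 24 changed sign in at least 1 alternative.

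Subfamily means depended on how unigenes were joined. With the most abundant unigene, the longest unigene and the length-weighted mean in turn, KCNA had 33.5, 33.5 and 30.7 FPKM, KCNC 21.7, 11.8 and 9.20, KCNK 20.2, 19.9 and 17.0, KCNQ 23.0, 21.6 and 20.6, and HCN 42.6, 38.5 and 39.3. With amphibian matches only, KCNA had 38.9 FPKM, KCND 16.8 and KCNQ 14.6. With no unigene dropped KCNC had 34.2 FPKM, and with entry names KCNK had 28.3. Values near 0 are limited by a depth that is unknown.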
